A study of Rattus norvegicus with 6 samples.

Results

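Thrombospondins and the transforming growth factor beta (TGF beta) system were examined in cultured rat oligodendrocyte lineage cells through 10 genes of the 37991 in the deposited table. They are the thrombospondin genes Thbs1 to Thbs4, the ligand genes Tgfb1 to Tgfb3, the receptor genes Tgfbr1 and Tgfbr2, and Ltbp1. The set was taken by gene symbol after Thbs2 had been seen to be lower in differentiated cells, so the values of Thbs2 are given as a description without a test. Each of the 10 symbols named 1 entry, and all 10 passed the filter on low counts. The cells were of the SD rat, with 3 libraries from precursors in Raff medium before differentiation and 3 from cells differentiated by a change of growth factors. The replicate numbers in the titles are 1, 2 and 5 in both groups. The titles place numbers 1 and 2 at day 0 and day 3, and the labels name no age of the animals and no transgene. Each library holds the RNA of a whole culture.

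Thrombospondins are secreted glycoproteins of the matrix. In the brain they are best known as astrocyte products that promote the formation of synapses. Thbs1 and Thbs2 form trimers, Thbs3 and Thbs4 form pentamers, and the Thbs1 protein can release active TGF beta from its latent form. TGF beta ligands are stored as latent complexes bound to proteins such as Ltbp1, bind the type II receptor Tgfbr2, and signal through the type I receptor Tgfbr1 to the transcription factors Smad2 and Smad3. In the oligodendrocyte lineage, TGF beta signalling is known to act on the exit of precursors from the cell cycle.

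Thbs2 and Thbs4 were both more than 4-fold lower in differentiated cells, while Thbs1 and Thbs3 differed by 1.18-fold and 1.25-fold and did not pass the test. The ligand genes Tgfb1 and Tgfb2 stood at lower means after differentiation and did not pass, but both passed when the replicate number was a block in the fit. Neither receptor passed in either fit. Levels are CPM, read counts over a common library total, after TMM scaling (a trimmed mean of log ratios between libraries). Changes are log2 fold changes, differentiated minus precursor, with a standard error (SE), from edgeR's quasi-likelihood test of 3 against 3 libraries. Benjamini-Hochberg adjustment ran over the 17797 genes tested, and a gene passed at an adjusted p under 0.05. Each adjusted p below is from this edgeR test unless another tool is named.

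Total counts per library ran from 55522101 to 79898629, so that 1 CPM stood for 54.9 to 72 reads. All 8 markers of mature oligodendrocytes rose, from a summed 1298 to 2069 CPM in precursors to 17419 to 20616 CPM after differentiation. Of 7 precursor markers 0 passed, and with the replicate number as a block 2 rose and 3 fell. Those are 28.6% and 42.9% of the list, where 14.9% and 15.7% of all genes tested did so. The libraries numbered 1 stood apart in both groups. The summed level of 10 microglia markers was 950 CPM in precursor 1 and 667 CPM in differentiated 1, and 352 to 388 CPM in the other 4 libraries. All 10 of these markers had reads.

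Promoter windows near the start site are printed for a thrombospondin gene that fell and for another that did not pass. With 1 window of each, a difference between them cannot be tied to the change in level. RefSeq promoters on the assembly GRCr8 matched 9 of the 10 genes, Thbs2 being the one without an entry. The windows run from 250 bases before to 50 after the start of the gene. They are written 5′ to 3′ on the gene's strand, and capitals mark the motif matches, searched on both strands. The GC box was searched as GGGCGG. For the SMAD box the letters were CAGAC. The third motif, the CCAAT box, was searched by the letters of its name. No matches overlap in the windows printed.
Thbs4, which fell, chr2:25760296-25760595, minus strand: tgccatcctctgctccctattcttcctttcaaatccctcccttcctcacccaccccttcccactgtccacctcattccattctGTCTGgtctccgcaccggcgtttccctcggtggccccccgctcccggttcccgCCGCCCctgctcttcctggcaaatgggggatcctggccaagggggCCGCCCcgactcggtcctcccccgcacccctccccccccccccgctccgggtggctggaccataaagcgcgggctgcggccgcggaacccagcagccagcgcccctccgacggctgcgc
Thbs1, which did not pass, chr3:125510000-125510299, plus strand: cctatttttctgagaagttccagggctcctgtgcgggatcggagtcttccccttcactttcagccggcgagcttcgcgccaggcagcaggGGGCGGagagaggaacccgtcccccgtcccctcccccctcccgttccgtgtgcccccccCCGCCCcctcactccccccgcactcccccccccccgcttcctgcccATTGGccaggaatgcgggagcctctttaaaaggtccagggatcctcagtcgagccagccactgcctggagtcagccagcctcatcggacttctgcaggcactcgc
The Thbs4 window held 2 GC boxes, starting 114 and 69 bases before the start, and 1 SMAD box starting 167 bases before it. In the Thbs1 window there were 2 GC boxes, starting 160 and 101 bases before the start, and a CCAAT box 55 bases before it, with no SMAD box. Of all 33469 promoters of 300 bases, 33.1% held a GC box, 37.5% a CCAAT box and 50.1% a SMAD box. Among the 9 promoters, 5 held a GC box, 5 a CCAAT box and 2 (Thbs4 and Ltbp1) a SMAD box. The SMAD palindrome GTCTAGAC was in 0 of the 9 and in 0.197% of all promoters. For the AP-1 site, searched as TGANTCA, these were 0 and 7.33%. For the TATA box, searched as TATAAA, they were 0 and 14.2%. A match is a description of the letters and not of a bound site.

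Thbs2 (292406) stood at 39.0, 40.4 and 40.2 CPM in precursors 1, 2 and 5. In differentiated 1, 2 and 5 it stood at 13.6, 6.42 and 7.43 CPM. The groups were far from overlapping, precursor libraries lay close together, and differentiated 1 was the highest of its group. The means were 39.8 ± 0.759 CPM (SD, n = 3) and 9.16 ± 3.91 CPM. The log2 fold change was -2.12 with SE 0.29, or 4.35-fold lower. Same-numbered pairs gave log2 ratios of -1.51, -2.65 and -2.44 for numbers 1, 2 and 5, and the log2 fold change without both libraries numbered 1 was -2.54. In a whole culture, fewer cells of a type and less RNA per cell cannot be told apart, which holds for each result here.

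Thbs4 (29220), the pentamer-forming thrombospondin known from muscle, tendon and brain, was the lowest of the 10 genes. It stood at 2.23, 2.32 and 3.68 CPM in precursors 1, 2 and 5, and at 0.362, 0.589 and 0.910 CPM in the differentiated libraries of the same numbers. The differentiated values rest on 26, 38 and 50 reads. Every differentiated library lay below every precursor library, and the drop was seen in 3 of 3 same-numbered pairs. Thbs4 fell by 2.15 on the log2 scale (SE 0.44, adjusted p = 0.0257), or 4.43-fold. Leaving out precursor 2 (adjusted p = 0.0773), precursor 5 (0.0911) or differentiated 2 (0.114) ended the call, with log2 fold changes between -2.25 and -1.88. On the log2(TPM + 1) scale, which shrinks changes at such low levels, limma gave -0.74.

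Thbs1 (445442), the activator of latent TGF beta, did not pass. Its values were 16.5, 12.4 and 12.5 CPM in precursors 1, 2 and 5 and 10.9, 11.6 and 12.4 CPM in differentiated 1, 2 and 5. Differentiated 5 and precursor 2 both round to 12.4 CPM, so the groups all but touch, and precursor 1 was the high library. The log2 fold change was -0.24 (SE 0.17, adjusted p = 0.47), and -0.04 without both libraries numbered 1. Thbs3 (681309) was at 10.7, 15.6 and 15.1 CPM in precursors and 8.17, 11.5 and 13.5 CPM in differentiated cells, with overlapping groups. Its log2 fold change of -0.33 (SE 0.24) did not pass (adjusted p = 0.485, and 0.0722 with the replicate block), though it was lower in 3 of 3 pairs.

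**Figure D1:**
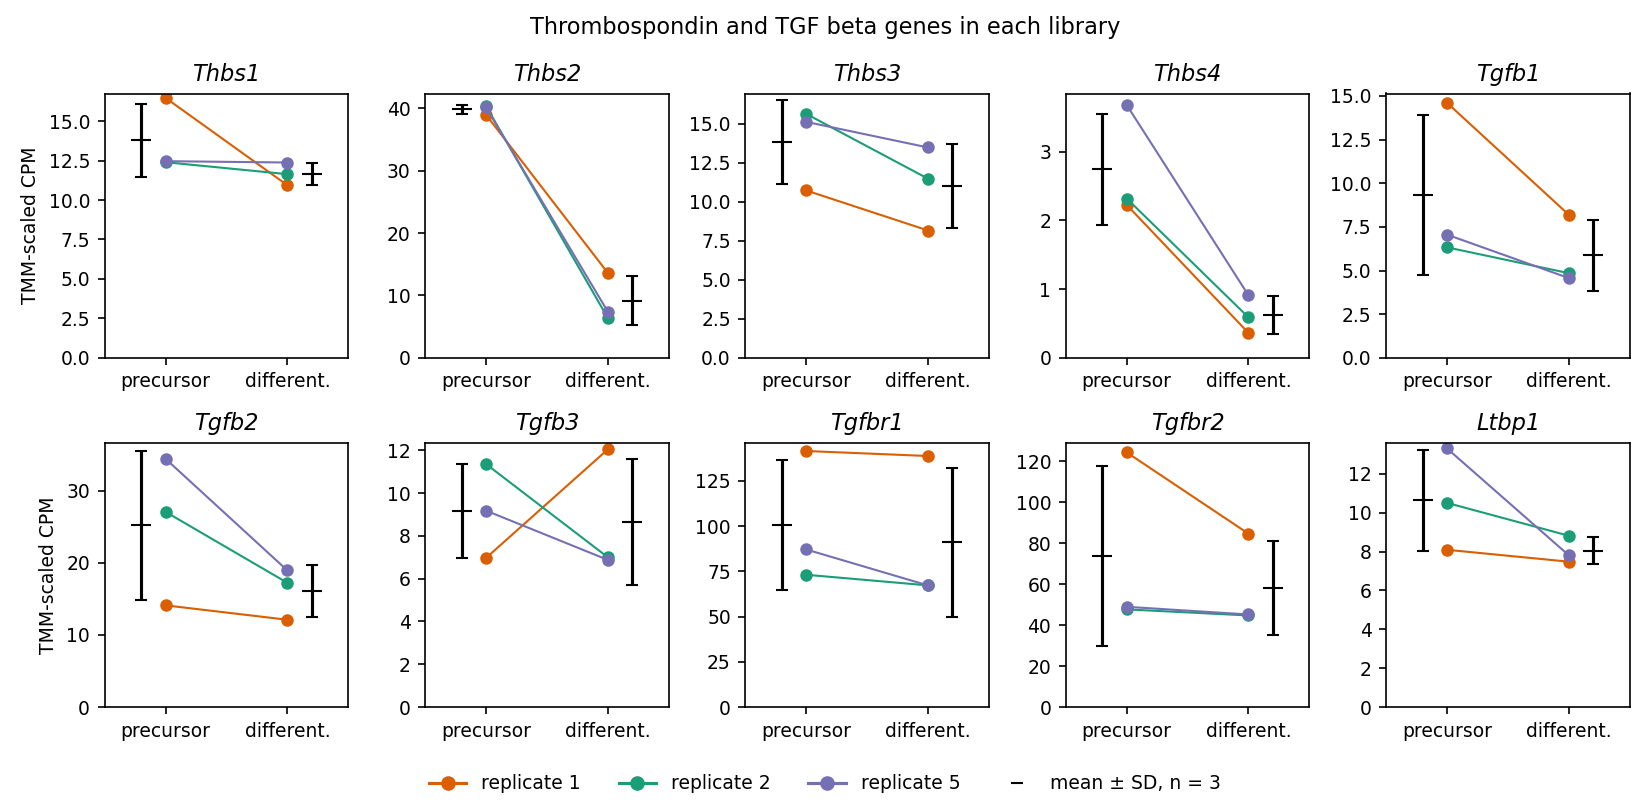
Each panel plots the TMM-scaled CPM of 1 gene (vertical axis, from 0) in precursor and differentiated libraries, with lines joining libraries of the same replicate number and black marks for the mean and SD of 3 libraries. Thbs2 and Thbs4 drop in all 3 pairs, while the receptors differ more between replicate 1 and the others than between groups.

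Levels of different genes were compared per transcript length, as shares of the summed TPM (a level per transcript length, deposited by the authors) of a family within a library. Thbs2 made up 43.5% ± 0.648 (SD, n = 3) of the thrombospondin TPM in precursors, the highest share of the 4. In differentiated cells its share was 19.0% ± 8.97, with 29.4% in differentiated 1 and 13.7% and 13.9% in differentiated 2 and 5. Thbs3 held 27.3% ± 4.66 in precursors and 40.8% ± 7.79 in differentiated cells, Thbs1 24.0% ± 4.84 and 38.0% ± 1.37, and Thbs4 5.29% ± 1.45 and 2.19% ± 0.831. These shares add up to a fixed total, so the drop of Thbs2 alone raises the others, and no test was made on them.

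The ratio of Thbs4 to Thbs1 was compared because it leaves out Thbs2. On the log2 TPM scale the ratio was -2.73, -2.26 and -1.60 in precursors 1, 2 and 5 and -4.78, -4.18 and -3.61 in differentiated 1, 2 and 5. The groups did not overlap, and the difference of the means was -1.999. The ratio of Thbs4 to Thbs3 differed by -1.89, from -2.38 ± 0.365 to -4.28 ± 0.318 (SD, n = 3). Each two-sided exact permutation test gave p = 0.1, also after adjustment over the 2 ratios, which is the smallest that 3 against 3 libraries allow. As Thbs4 fell and Thbs1 and Thbs3 differed little, both ratios restate the drop of Thbs4 and are not separate evidence.

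**Figure D2:**
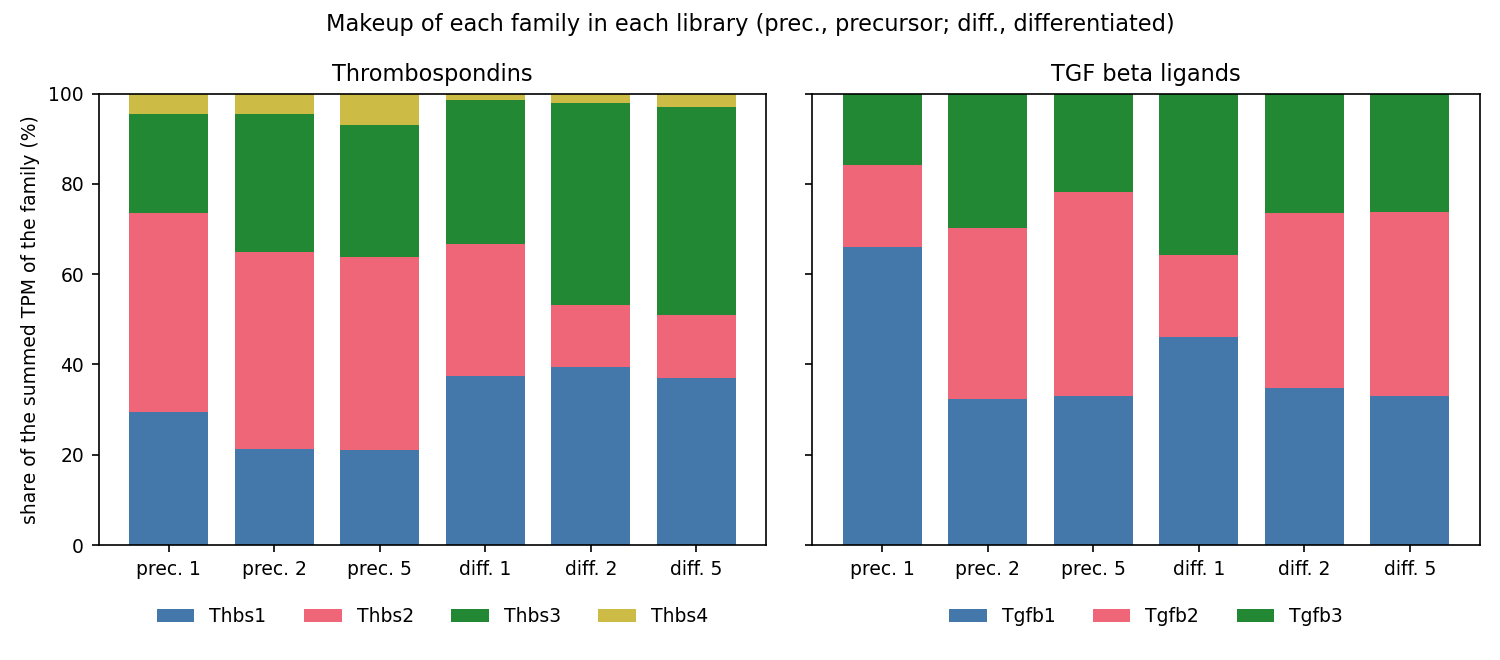
Stacked bars give the share (percent, vertical axis) of each gene in the summed TPM of its family in each of the 6 libraries. Thbs2 holds 42.7% to 44.0% of the thrombospondin TPM in precursors and 13.7% to 29.4% in differentiated cells, and Tgfb1 holds 66.0% of the ligand TPM in precursor 1.

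Tgfb2 (81809) encodes a ligand known for its roles in development. It stood at 14.1, 27.1 and 34.4 CPM in precursors 1, 2 and 5 and at 12.1, 17.2 and 18.9 CPM in differentiated 1, 2 and 5. It was lower in 3 of 3 pairs, yet the groups overlapped because precursor 1 was low. The log2 fold change was -0.65 (SE 0.33, adjusted p = 0.30). With the replicate number as a block Tgfb2 fell by 0.58 (SE 0.14, adjusted p = 0.0219), and without both libraries numbered 1 it fell by 0.76 (adjusted p = 0.0256).

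Tgfb1 (59086), the ligand made by many immune cells including microglia, went the other way across replicates. It was at 14.6, 6.33 and 7.06 CPM in precursors 1, 2 and 5 and 8.19, 4.85 and 4.57 CPM in differentiated 1, 2 and 5. Both libraries numbered 1 were the highest of their group, and the groups overlapped. The log2 fold change was -0.67 (SE 0.39, adjusted p = 0.364), and with the block Tgfb1 fell by 0.62 (SE 0.15, adjusted p = 0.0226, lower in 3 of 3 pairs). Without both libraries numbered 1 it did not pass (log2 fold change -0.50, adjusted p = 0.146).

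Tgfb3 (25717) moved in no one direction. It stood at 6.97, 11.4 and 9.18 CPM in precursors and 12.04, 7.00 and 6.88 CPM in differentiated cells, so that pair 1 was higher after differentiation and pairs 2 and 5 lower. Its log2 fold change was -0.09 (SE 0.29, adjusted p = 0.903), and it turned positive without precursor 2, differentiated 2 or differentiated 5. In shares of the ligand TPM, Tgfb1 held 43.8% ± 19.2 (SD, n = 3) in precursors and 37.9% ± 7.05 in differentiated cells, Tgfb2 33.7% ± 14.0 and 32.5% ± 12.4, and Tgfb3 22.5% ± 6.94 and 29.5% ± 5.37. None of the 3 shares differed beyond the spread between libraries (two-sided exact permutation p = 0.9, 1 and 0.3, adjusted 1, 1 and 0.9, the smallest possible being 0.1). The sign of the Tgfb1 difference rested on precursor 1, without which the share was 5.20 percentage points higher in differentiated cells.

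The receptors were the most abundant of the 10 genes. Tgfbr1 (29591) stood at 141, 73.1 and 87.0 CPM in precursors 1, 2 and 5 and at 139, 67.2 and 67.2 CPM in differentiated 1, 2 and 5. Tgfbr2 (81810) stood at 124, 47.7 and 49.0 CPM and at 84.7, 44.7 and 45.2 CPM in the same order. For both genes the libraries numbered 1 were high in each group, and the remaining 4 libraries lay close together. The log2 fold changes were -0.14 (SE 0.35, adjusted p = 0.861) for Tgfbr1 and -0.34 (SE 0.43, adjusted p = 0.707) for Tgfbr2. With the block they were -0.17 and -0.26 with SE 0.08 and 0.11, and did not pass (adjusted p = 0.171 and 0.12). Without precursor 1, both signs turned, to 0.19 and 0.27, and that of Tgfbr1 also turned without differentiated 2 or 5.

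Ltbp1 (59107), which tethers latent TGF beta to the matrix, was at 8.09, 10.5 and 13.3 CPM in precursors and 7.48, 8.82 and 7.81 CPM in differentiated cells. It was lower in 3 of 3 pairs with overlapping groups, at a log2 fold change of -0.40 (SE 0.22, adjusted p = 0.323, and 0.132 with the block).

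**Figure D3:**
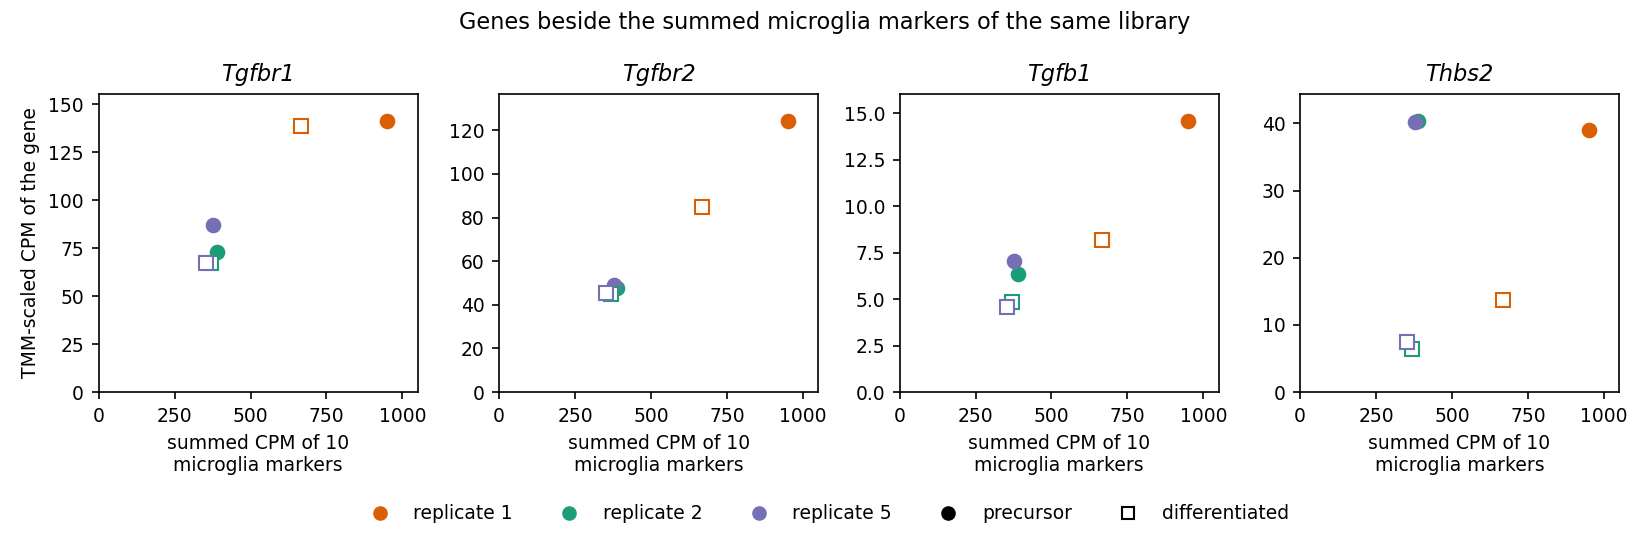
Each panel plots the TMM-scaled CPM of 1 gene (vertical axis, from 0) against the summed CPM of 10 microglia markers in the same library (horizontal axis), with filled circles for precursors and open squares for differentiated cells. Both libraries numbered 1 lie to the right, with high Tgfbr1, Tgfbr2 and Tgfb1, while Thbs2 separates by group.

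The summed microglia markers were thus highest in the libraries where Tgfbr1, Tgfbr2 and Tgfb1 were highest, and 0 of the 10 markers passed between groups. The summed endothelial markers, which were mostly Flt1, and the fibroblast and pericyte markers without Tagln, were also highest in the libraries numbered 1 (values below). Not every microglia marker followed the sum, as Cx3cr1 stood at 4.89 CPM in precursor 1 and at 8.23 and 9.24 CPM in precursors 2 and 5. With the replicate block, the fit in which Tgfb1 passed, 3 of the 10 microglia markers fell and 1 rose. Those are 30% and 10%, beside 15.7% and 14.9% of all genes. On the log2 scale Itgam fell by 0.58, Tyrobp by 0.53 and Cd68 by 0.40 (adjusted p = 0.00121, 0.00664 and 0.0386), each in 3 of 3 pairs. C1qb rose by 0.54 (adjusted p = 0.0214). Of the others, Aif1, Tmem119 and C1qa were lower and Csf1r, Cx3cr1 and P2ry12 higher in that fit, without passing. The drop of Tgfb1 in that fit was 0.62. The part of microglia, or of the other cell types, in the levels of Tgfbr1, Tgfbr2 and Tgfb1 was not tested. The summed level of 11 fibroblast and pericyte markers was 391, 203 and 212 CPM in precursors 1, 2 and 5 and 430, 404 and 389 CPM in differentiated 1, 2 and 5. Of these 11, Rgs5 was at 0 in all libraries, 2 rose (Tagln and Pdgfrb) and 0 fell. Tagln is also on the target list below, as are Col1a1, Col1a2, Col3a1 and Acta2, which were kept. Without Tagln alone, the sum was 318, 114 and 139 CPM in precursors, with Col3a1 at 221, 50.1 and 53.6 CPM of it. In differentiated cells the sum was 214, 85.2 and 114 CPM. Cspg4, also a precursor marker, was 27.2, 42.3 and 62.9 CPM of that. Leaving out Tagln turned the sum from higher to lower in 3 of 3 pairs. Thbs2 was also lower in 3 of 3 pairs. Within precursors the 2 differed, since this sum was far higher in precursor 1, whereas Thbs2 stood at 39.0, 40.4 and 40.2 CPM. With the block the collagen genes Col1a1, Col1a2 and Col3a1 and the matrix proteoglycan genes Dcn and Lum fell, by 0.72 to 1.24 on the log2 scale, and 3 of the markers rose. The summed level of 10 astrocyte markers ran from 4351 to 6144 CPM in precursors and from 7904 to 8194 CPM in differentiated cells, and 4 of them rose. With the block 8 of the 10 rose and 0 fell, where 14.9% and 15.7% of all genes did. Most of the sum was Gfap, at 3195 to 6114 CPM, which did not pass without the block (adjusted p = 0.0849). The astrocyte sum was higher, and Thbs2 and Thbs4 lower, in every differentiated library than in every precursor library, so each follows the 2 groups. Slc1a2, among the 10 astrocyte markers, was lower in 3 of 3 pairs (log2 fold change -0.30) and did not pass. Summed neuron markers, 9 in all, ran from 223 to 408 CPM and from 233 to 276 CPM, and 1 of them fell. The 7 endothelial markers summed to 12.9 to 39.3 CPM and 15.8 to 29.9 CPM, with Cldn5 at 0 in all libraries, and the 6 Schwann markers to 15.2 to 27.7 CPM and 45.6 to 100.5 CPM. Flt1 made up most of the endothelial sum, at 35.99, 10.17 and 14.48 CPM in precursors 1, 2 and 5. In differentiated 1, 2 and 5 it stood at 26.49, 12.89 and 14.01 CPM. The other endothelial markers reached at most 2.39 CPM. Of these, Cdh5 and Tek were also highest in both libraries numbered 1, and Pecam1 only among precursors. Kdr was lowest of its group in both, and Vwf stood at 0 in precursor 1. The part of these cell types in the changes of the thrombospondins was not tested.

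The genes that passed as lower were Thbs4 and Thbs2, the latter counted only as a description since the set was chosen on it. That is 2 of the 10, with 0 as higher, where 3.21% of all genes tested passed as lower and 5.65% as higher. These shares come from 1005 genes higher and 571 lower, a split that scaling by library size alone turned to 678 and 1006. With the replicate block 4 passed as lower and 0 as higher, where 15.7% and 14.9% of all genes did. Without both libraries numbered 1, 3 passed as lower and 0 as higher, where 8.11% and 8.48% of all genes did. In 3 of the 10 every differentiated library lay below every precursor library, as in 13.8% of all genes. All 10 log2 fold changes were negative, with a median of -0.37, beside -0.04 over all genes tested. Nothing is read from these counts, since the set was chosen on Thbs2 in this comparison and Thbs2 is in each count of lower genes.

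**Figure D4:**
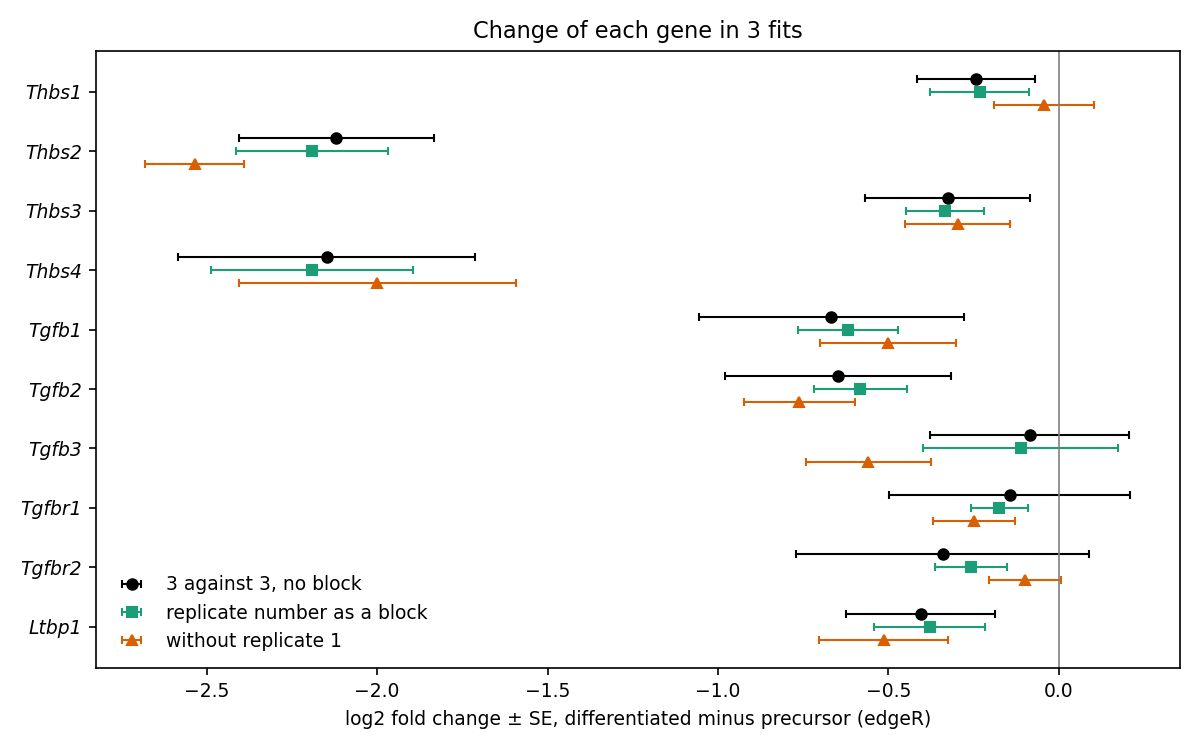
Points give the log2 fold change (horizontal axis, differentiated minus precursor, with SE bars) of each gene in 3 edgeR fits: all 6 libraries, all 6 with the replicate number as a block, and without both libraries numbered 1. Thbs2 lies from -2.54 to -2.12 over the 3 fits and Thbs4 at -2.15 and -2.19 in the fits of all 6 libraries, and the bars of Tgfb1, Tgfb2 and the receptors shorten with the block.

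Ranked by mean TPM within precursors, the order was Tgfbr1 (19.7 ± 4.78), Tgfbr2 (16.7 ± 7.01), Thbs2 (8.06 ± 1.51), Tgfb1 (7.07 ± 2.41), Tgfb2, Thbs3, Thbs1 (4.35 ± 0.413), Tgfb3, Ltbp1 (2.03 ± 0.838) and Thbs4 (1.02 ± 0.48). Only Tgfbr2 and Thbs2 were neighbours whose intervals of 1 SD did not overlap. In differentiated cells the order was Tgfbr1 (14.8 ± 4.73), Tgfbr2 (11.6 ± 3.85), Tgfb1 (3.77 ± 0.794), Thbs3, Tgfb2, Thbs1, Tgfb3 (2.93 ± 0.613), Thbs2 (1.49 ± 0.448), Ltbp1 (1.24 ± 0.213) and Thbs4 (0.188 ± 0.103). Thbs2 thus moved from the third to the eighth place, and the SD intervals were apart below Tgfbr2, below Tgfb3 and below Ltbp1.

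The rest of the pathway was described with 6 lists that hold 92 genes beside the 10, of which 87 passed the filter. Of these 87, 5 rose and 5 fell, or 5.75% each, where 5.65% of all genes tested rose and 3.21% fell. The log2 fold changes of the 87 had a median of -0.20, beside -0.04 over all genes. With the block 11 rose and 30 fell, or 12.6% and 34.5%, where 14.9% and 15.7% of all genes did. The same shares of all genes stand behind the counts of each list below. The counts depended on single libraries, with 1 to 8 genes that fell when any 1 library was left out. Members of the lists overlap in Itgav, Itgb1 and Itgb3.

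Among 15 partners of thrombospondins, 2 fell and 0 rose, and with the block 7 fell and 3 rose, or 46.7% and 20%, beside 15.7% and 14.9% of all genes. Cacna2d1 (25399), the calcium channel subunit through which thrombospondins act on synapses, was at 23.6, 22.7 and 25.2 CPM in precursors 1, 2 and 5 and 13.3, 11.3 and 9.61 CPM in differentiated 1, 2 and 5. The groups were well apart, and it fell by 1.06 on the log2 scale (SE 0.17, adjusted p = 0.00915, and 0.0562 without differentiated 2). Cd47 (29364), a thrombospondin receptor of many cells, was at 105, 60.3 and 61.5 CPM and at 57.3, 40.4 and 39.2 CPM. All differentiated values of Cd47 lay below those of precursors, with a log2 fold change of -0.73. Cd47 did not pass (adjusted p = 0.146) but did with the block (0.00163), without both libraries numbered 1 (0.0118) and with DESeq2 (0.0423).

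Of 19 genes of latency and activation, 2 fell and 1 rose, and with the block 9 fell and 1 rose, or 47.4% and 5.26% of the list. Fbn2 (689008), a fibrillin of the microfibrils that hold latent complexes, fell from 48.6, 33.4 and 43.4 CPM to 11.4, 11.3 and 13.9 CPM (log2 fold change -1.78, SE 0.18, adjusted p = 0.00173). Its call held in each of the 6 fits that left out 1 library. Bmp1 (83470), a protease that cleaves Ltbp1 and procollagens, rose from 93.6, 124 and 114 CPM to 163, 167 and 181 CPM (log2 fold change 0.62, adjusted p = 0.0273). Leaving out any library but the 2 numbered 1 ended that call (adjusted p up to 0.116), as did scaling by library size alone (0.123).

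Itgav (296456), the integrin subunit that binds the latency peptide, fell from 212, 177 and 213 CPM to 153, 130 and 136 CPM (log2 fold change -0.52, adjusted p = 0.0403). That call was lost in each fit that left out 1 library but the one without differentiated 1 (adjusted p up to 0.182). Its partner Itgb8 (362800) stood at 46.0, 51.1 and 101 CPM in precursors and 32.0, 30.4 and 40.6 CPM in differentiated cells, with a log2 fold change of -0.94. It did not pass (adjusted p = 0.114) but did with the block (0.00708) and with DESeq2 (0.0218). Ltbp3 (83838) and Ltbp4 (292734), the other latent TGF beta binding proteins of this class, had log2 fold changes of 0.28 and -0.02 and overlapping groups (adjusted p = 0.773 and 0.982). Ltbp2 (59106), a family member of the microfibrils that does not bind latent TGF beta, stood at 4.39, 1.05 and 1.42 CPM in precursors and 1.28, 0.248 and 0.109 CPM in differentiated cells. Its log2 fold change of -2.04 did not pass (adjusted p = 0.253) but did with the block (0.00972), lower in 3 of 3 pairs on 6 to 92 reads after differentiation.

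Of 10 other receptors and co-receptors, 0 passed, and with the block 1 rose and 2 fell, or 10% and 20%. Neo1, Cd109 and Eng, named after their values were seen, had an unadjusted edgeR p under 0.05 (0.00617, 0.0105 and 0.0374). So did 4110 of the 17797 genes tested. DESeq2 called 1 of the 10 other receptors and co-receptors higher and 1 lower. The co-receptor Tgfbr3 (29610), which presents ligands to Tgfbr2, was low at 2.26, 3.91 and 4.52 CPM in precursors and 5.48, 2.53 and 4.04 CPM in differentiated cells (log2 fold change 0.17, adjusted p = 0.841). Of 10 genes of the activin branch, which shares Smad2 and Smad3, 1 fell and 0 rose. Acvr2a (29263), an activin receptor, fell from 30.0, 30.5 and 32.1 CPM to 21.1, 23.9 and 20.1 CPM. Its adjusted edgeR p of 0.0493 was near the threshold, and its call was lost in each of the 6 fits that left out 1 library. With the block 1 of the 10 fell and 2 rose, or 10% and 20%. The genes that rose were named after their values were seen, as was Ltbp2 above. Inhbb (25196), an activin subunit, stood at 5.69, 6.93 and 4.96 CPM in precursors and 8.26, 12.6 and 11.9 CPM in differentiated cells, and the ligand gene Gdf11 (29454) at 23.7, 27.8 and 29.2 CPM and at 42.0, 37.8 and 36.5 CPM. Neither passed without the block (log2 fold changes 0.90 and 0.53, adjusted p = 0.0573 and 0.0508), and both did with it (0.0105 and 0.0154).

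Of 13 SMADs and their regulators, 1 rose and 0 fell, and with the block 1 rose and 2 fell, or 7.69% and 15.4%. Smurf1 (690516), a ubiquitin ligase that Smad7 brings to the receptors, rose from 52.7, 47.8 and 61.3 CPM to 107, 106 and 132 CPM (log2 fold change 1.09, SE 0.14, adjusted p = 0.00475). It was higher in 3 of 3 pairs, and did not pass in limma on the TPM scale (adjusted p = 0.0873). Smad3 (25631) was at 30.2, 31.9 and 35.4 CPM in precursors and 23.2, 22.9 and 24.4 CPM in differentiated cells, without overlap. Its log2 fold change of -0.47 had an adjusted edgeR p of 0.057, and it passed with the block (0.00767) and with DESeq2 (0.00558). Smad2 (29357) and the shared partner Smad4 (50554) had log2 fold changes of -0.13 and -0.21 and overlapping groups (adjusted p = 0.597 and 0.313).

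Of 23 targets and feedback genes of TGF beta signalling, 3 rose and 1 fell, with a median log2 fold change of -0.41. With the block 3 rose and 11 fell, or 13% and 47.8%, where 14.9% and 15.7% of all genes did. Smad7 (81516), the inhibitory SMAD, rose from 3.92, 2.74 and 4.38 CPM to 9.88, 11.3 and 11.99 CPM (log2 fold change 1.59, SE 0.23, adjusted p = 0.00655). Spsb1 (313722), an adaptor known to bind Tgfbr2 and promote its degradation, rose from 15.9, 13.2 and 16.4 CPM to 39.3, 49.6 and 46.4 CPM (log2 fold change 1.57, SE 0.15). Tagln (25123), an actin-binding protein of smooth muscle, rose from 73.0, 89.6 and 73.2 CPM to 216, 319 and 274 CPM (log2 fold change 1.78, SE 0.17). In each of these 3 genes the groups were apart, and each call held in all 6 fits that left out 1 library (adjusted p up to 0.0393). In limma on the TPM scale Smad7 did not pass (adjusted p = 0.0511).

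The target that fell was Tgfbi (116487), a matrix protein named for its induction by TGF beta. It went from 8.27, 8.27 and 7.93 CPM to 4.50, 5.05 and 3.75 CPM (log2 fold change -0.88, adjusted p = 0.0339), and its call was lost in each of the 6 fits that left out 1 library (up to 0.127). The feedback gene Skil (114208) had a log2 fold change of -0.06 (adjusted p = 0.911).

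**Figure D5:**
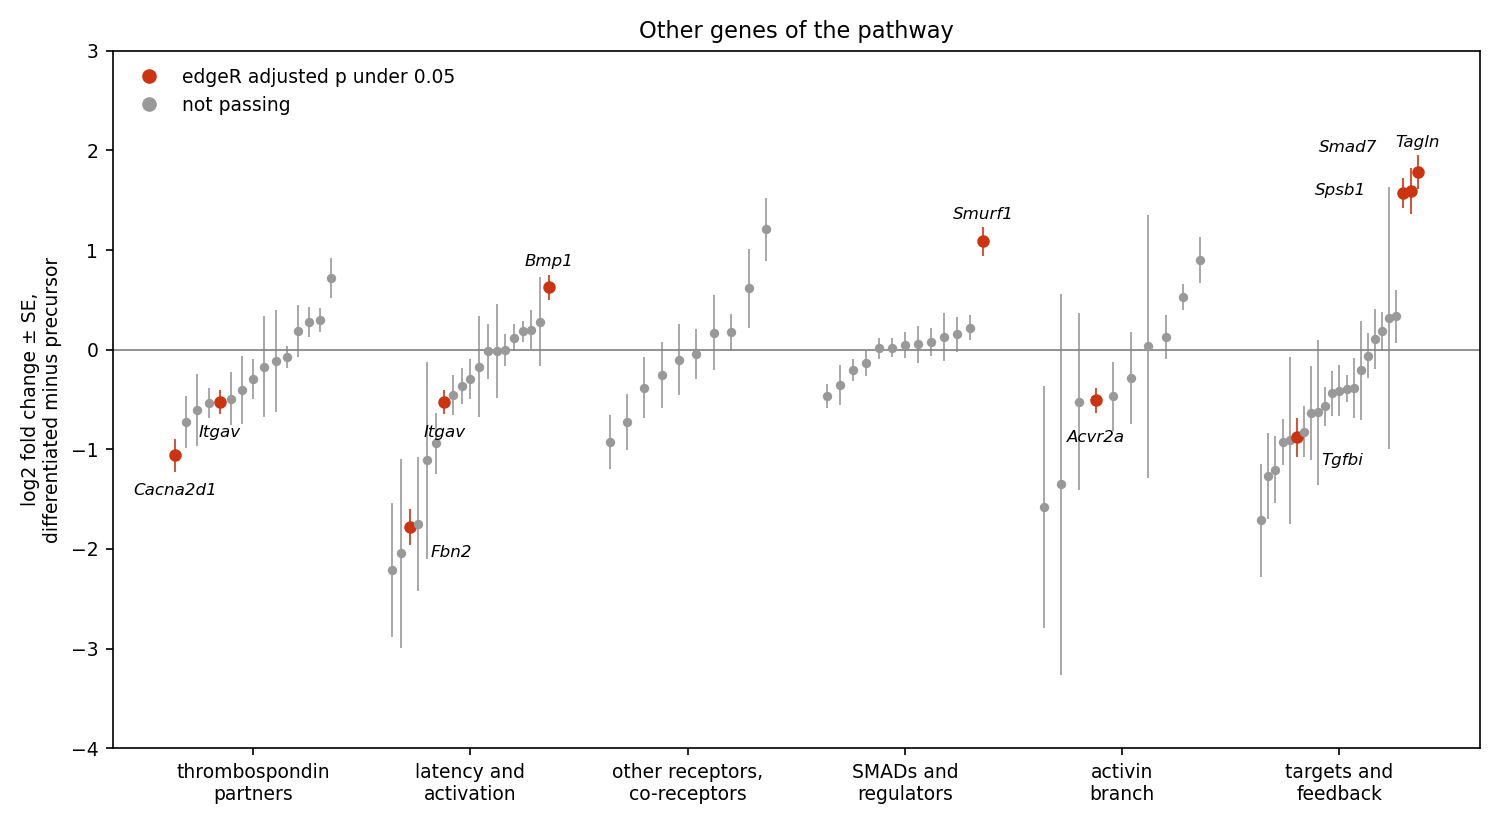
Points give the log2 fold change (vertical axis, differentiated minus precursor, with SE bars) of the other pathway genes, sorted within each of 6 lists, with genes that passed in red and named. Smad7, Spsb1, Tagln and Smurf1 stand above 1, and Fbn2 and Cacna2d1 below -1, among mostly grey points.

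The genes whose log2 CPM followed Thbs2 most closely over the 6 libraries were Plcd1, Hdgfrp3, Edil3, Tes and Fam102b, out of 11556 with a mean of at least 5 CPM. Their Pearson correlations with Thbs2 ran from 0.9933 to 0.9987, over 6 points that share libraries and groups. Edil3 encodes a matrix protein that binds integrins, and stood at 19.4, 20.2 and 19.2 CPM in precursors and 13.7, 9.53 and 10.2 CPM in differentiated cells. Tes, a protein of focal adhesions, stood at 133, 135 and 127 CPM and at 77.8, 60.7 and 59.6 CPM. All 5 were lower in 3 of 3 pairs, with log2 fold changes from -0.997 (Tes) to -0.52 (Plcd1), smaller than that of Thbs2. The choice by correlation with Thbs2 fixes that these genes are lower after differentiation and highest in differentiated 1 within that group, so neither is a finding.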

How the data were processed

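RNA of 6 samples was sequenced from a stranded total RNA kit, per the labels' protocols. Per the submitters' processing notes, HISAT2 2.1.0, StringTie 2.1.3b, Trimmomatic 0.38 and bcl2fastq 2.20.0 were used, with a human genome build named. For the rat build, the annotation and the strand of counting, nothing is given in the sources used here, and overlapping or antisense genes cannot be told apart. The authors deposited 1 table with a whole-number read count, an FPKM and a TPM for each gene and library. The deposited read counts are not normalized and were the input of all tests. The deposited TPM values were used for shares and order within a library, and the deposited FPKM values were not used.

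Groups came from the condition label. Genes were filtered with the low-count filter of edgeR 4.0.16 (17797 kept), scaled by TMM and tested by its quasi-likelihood method with robust estimation in R 4.3.3. The SE is the log2 fold change divided by the square root of F. Alternatives were a replicate block, DESeq2 1.42.0, library size alone, upper quartile scaling, no filter, limma 3.58.1 on log2(TPM + 1), each library left out in turn, and, added after the data were seen, both libraries numbered 1 left out. The fit was tested on simulated data for this comparison over 17797 genes, with the changed genes drawn from those above a mean of 5 CPM. Of genes changed by 2 on the log2 scale 93% were recovered, and of those changed by 1 52%, with 10 unchanged genes called. Thbs4 lay below that mean, so these shares do not describe it. Simulated libraries were drawn independently, without deviations shared by libraries of the same number.

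Nothing in the labels tells whether the replicates were grown as separate cultures, so a p-value reflects only how far these samples spread, which may be technical. Same-numbered libraries deviated together from their group means, with correlations across genes of 0.421, 0.197 and 0.272 for numbers 1, 2 and 5, and were treated as pairs on that ground alone. This check is weak with 3 libraries a group. In 115 cases a gene had 0 reads in 1 library and at least 20 in each of the other 5. None of the 10 genes had a count of 0, their counts running from 26 to 9952. No column belonged to another series.

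The members, lists and tests were chosen with earlier results of these data known. Named are the 10 genes, 13 pathway genes fixed by name (1 is not reported here), up to 4 called genes of each list with the largest change in one direction in 3 of 3 pairs, and the 5 genes most correlated with Thbs2. Older symbols were matched through a RefSeq table of GRCr8, in which 29216 of the identifiers were found.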

Additional observations from a re-analysis of the deposited data

How the results depend on the processing

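Each of the 10 genes kept its direction with DESeq2, both other scalings, no filter, the TPM scale, the replicate block and without both libraries numbered 1. Tgfb1 and Tgfb2 passed with the block, as printed above, and the block changed the call of none of the other 8. It raised the count of genes higher from 1005 to 2643 and of those lower from 571 to 2797, the members lower from 2 to 4, and the pathway genes from 5 and 5 to 11 and 30. DESeq2 gave 1521 higher and 1252 lower, and 9 and 17 pathway genes. Without both libraries numbered 1 there were 1529 and 1462, and 8 and 18. Library size alone gave 678 higher and 1006 lower and 10 pathway genes lower, and limma on the TPM scale 487 and 1000, and 2 and 11. The median log2 fold change of all genes was -0.17 on that scale, -0.19 with library size alone and -0.04 with TMM. Leaving out 1 library gave 484 to 947 higher, 148 to 561 lower, 1 to 2 members lower, and 4 to 7 and 1 to 8 pathway genes.

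Over all fits, the lists ran from 0 to 3 higher and 0 to 7 lower (thrombospondin partners), 0 to 2 and 1 to 9 (latency), 0 to 1 and 0 to 2 (other receptors, and SMADs), 0 to 2 and 0 to 1 (activin branch) and 2 to 3 and 0 to 11 (targets). Tgfbr3 was at -0.0097 with library size alone, -0.068 on the TPM scale and -0.36 without both libraries numbered 1, and Ltbp4 at 0.042 with the replicate block. Leaving out 1 library gave log2 fold changes from -0.39 to 0.10 for Tgfb3, -0.57 to 0.19 for Tgfbr1, -0.70 to 0.27 for Tgfbr2, -0.11 to 0.42 for Tgfbr3, -0.29 to 0.11 for Skil, -0.22 to 0.73 for Ltbp3 and -0.25 to 0.28 for Ltbp4. The Tgfb1 share difference ran from -11.6 to 5.20 percentage points and that of Tgfb2 from -9.00 to 5.96, and the replicate block leaves both differences as they are by construction. For these changes of sign the cause was not tested. Depth limits Thbs4 most, at 26 to 50 reads after differentiation.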

Other observations

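Several pathway genes did not pass the edgeR test of 3 against 3 libraries and passed with the replicate block. They were chosen after their values were seen. Mmp9, a protease that can release latent TGF beta, stood at 1613, 472 and 412 CPM in precursors 1, 2 and 5 and at 325, 110 and 105 CPM in differentiated 1, 2 and 5 (log2 fold change -2.21, SE 0.67, adjusted p = 0.0949, and 4.5e-05 with the block). Mmp2, a related protease, stood at 118, 40.1 and 35.9 CPM and at 37.3, 11.4 and 8.74 CPM. In both, the libraries numbered 1 were the highest of their group. Fn1, fibronectin, stood at 62.7, 48.5 and 102 CPM in precursors and 35.2, 19.8 and 37.6 CPM in differentiated cells (log2 fold change -1.20, adjusted p = 0.0745, and 0.00111 with the block). Postn, a matrix protein of the fasciclin family to which Tgfbi belongs, stood at 93.4, 253 and 227 CPM and at 44.9, 105 and 87.6 CPM, with the libraries numbered 1 the lowest of their group. Neo1, neogenin, was higher in 3 of 3 pairs, at 28.9, 44.3 and 58.2 CPM in precursors and 67.0, 104 and 132 CPM in differentiated cells.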
